A study of Rattus norvegicus with 6 samples.

Results

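The receptors through which noradrenaline, adrenaline, acetylcholine and adenosine act on the heart were followed at the level of their mRNA, together with Rgs2, which encodes an inhibitor of the G protein used by alpha1-adrenergic receptors. The genes were taken by symbol: Adra1a, Adra1b, Adra1d and Adrb1 (adrenergic), Chrm2 (muscarinic), Adora1, Adora2a and Adora2b (adenosine) and Rgs2. Of the 9 genes named, 8 were found among 28293 genes with a symbol or identifier of their own. Adra1a was not analysed here. Among the 8 genes, 6 reached a mean of 0.5 FPKM (fragments per unit of transcript length and of library size) over all samples and entered the test with 10942 genes in all, and Adora1 and Adora2b lay below that limit.

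The study sequenced RNA from the myocardium of wild-type male rats in 2 groups of 3 samples, sham and ischemia/reperfusion (I/R). In the I/R group the left anterior descending coronary artery was tied for 30 min and released for 6 h before the heart was taken. The titles of the sham samples carry the same 30 min and 6 h. The strain and age of the rats were not given in the sources used here, and the labels number the samples without tying each to a rat, so that p-values measure the spread between these samples only.

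Alpha1-adrenergic receptors couple to Gq and phospholipase C, which releases calcium and activates protein kinase C, and they take part in contraction and in growth of heart muscle cells. The beta1-adrenergic receptor couples to Gs, raises cyclic AMP and is the main route by which noradrenaline speeds and strengthens the heartbeat, whereas the muscarinic receptor encoded by Chrm2 and the adenosine receptor encoded by Adora1 couple to Gi and slow it. The adenosine receptors encoded by Adora2a and Adora2b couple to Gs, widen coronary vessels and restrain leukocytes. RGS proteins such as Rgs2 end the signal by speeding the return of the G protein to its inactive state.

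In I/R myocardium the alpha1-adrenergic receptors Adra1b and Adra1d, the muscarinic receptor Chrm2, and Rgs2 were higher than in sham, and none of the 6 genes tested was lower (limma, Benjamini-Hochberg adjusted p under 0.05 over all genes tested). Over all genes tested, 25.5% were called higher and 7.36% lower, so that rises were common in these samples. Adrb1 and Adora2a did not pass. Adra1d and Adrb1 reached the limit of 0.5 FPKM only through the I/R samples (sham means 0.0670 and 0.423 FPKM), so the number of genes called is a description of those that passed. In a fit with no filter 2 of the 8 genes were called higher, Adra1b and Rgs2, and 0 lower, against 11.4% and 3.32% of all genes in that fit.

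The libraries differed in ways that bear on every level below. The 13 mitochondrially encoded mRNAs took 80.1% to 86.2% of the summed FPKM in sham and 61.8% to 71.5% in I/R, and the summed FPKM of 6 cardiomyocyte markers (Myh6, Tnnt2, Tnni3, Actc1, Myl2 and Ryr2) was 3219 to 10510 in sham and 21170 to 30371 in I/R. Of these markers 5 were called higher, with a median log2 fold change of 2.10, and none was at 0. Their part in the results was not tested. In tissue RNA, fewer cells of a type and less RNA per cell cannot be told apart. Low FPKM values were whole multiples of a step, which gave the smallest whole fragment numbers in proportion (tolerance 0.001) for 98.7% of the genes above 0 in 2 or more samples. These summed to at least 6804874 to 8724750 fragments per sham sample and 8264193 to 10979314 per I/R sample, and intervals drawn from them cover counting error only.

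The stretches before the start sites of the 4 genes that rose are shown because these genes moved in the same direction. Each is the 250 bases upstream of the RefSeq start (GRCr8), read 5′ to 3′ on the gene's strand. Capitals mark TGACG, the core of cyclic AMP response elements, and GGGCGG, the GC box bound by Sp1-type factors, on either strand. The positions were chr10:28814348-28814597 for Adra1b (minus strand), chr3:139262332-139262581 for Adra1d (minus), chr4:65982200-65982449 for Chrm2 (plus) and chr13:58352667-58352916 for Rgs2 (minus).
Adra1b: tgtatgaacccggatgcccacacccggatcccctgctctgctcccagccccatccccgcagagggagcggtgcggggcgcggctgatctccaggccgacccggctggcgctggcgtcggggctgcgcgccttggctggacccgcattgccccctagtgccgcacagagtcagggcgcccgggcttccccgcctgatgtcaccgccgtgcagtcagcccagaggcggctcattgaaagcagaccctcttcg
Adra1d: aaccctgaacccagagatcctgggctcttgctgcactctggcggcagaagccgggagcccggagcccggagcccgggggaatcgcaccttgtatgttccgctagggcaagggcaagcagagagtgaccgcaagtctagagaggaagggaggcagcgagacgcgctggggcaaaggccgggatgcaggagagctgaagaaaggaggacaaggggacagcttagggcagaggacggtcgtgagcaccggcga
Chrm2: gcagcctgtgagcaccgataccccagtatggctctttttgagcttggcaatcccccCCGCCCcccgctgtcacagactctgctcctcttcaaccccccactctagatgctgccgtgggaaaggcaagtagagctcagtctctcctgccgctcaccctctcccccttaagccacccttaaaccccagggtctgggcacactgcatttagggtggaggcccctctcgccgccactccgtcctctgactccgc
Rgs2: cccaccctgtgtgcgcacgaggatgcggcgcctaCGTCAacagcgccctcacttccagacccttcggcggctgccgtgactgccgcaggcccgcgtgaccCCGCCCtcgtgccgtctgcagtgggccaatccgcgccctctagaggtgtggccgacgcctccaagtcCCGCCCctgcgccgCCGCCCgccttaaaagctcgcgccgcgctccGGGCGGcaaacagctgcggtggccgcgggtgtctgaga

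The GC content was above the median in these 4 windows and in the other 3 with a RefSeq window alike: it was 70.8% for Adra1b, 64% for Adra1d, 62% for Chrm2 and 72.4% for Rgs2, and 72% for Adrb1, 71.2% for Adora2b and 56.8% for Adora1, against a median of 51.2% over 33469 windows of the same length. Rgs2 held 1 TGACG match, 216 to 212 bases before the start, and 4 GGGCGG matches, the nearest 38 to 33 bases before it. Chrm2 held 1 GGGCGG match, and Adra1b and Adra1d held neither motif. TGACG was found in 18.2% and GGGCGG in 30.5% of all windows. Of the 9 genes 7 had a RefSeq window, and among those 7 TGACG also stood upstream of Adrb1 and GGGCGG upstream of Adora2b. No match of 1 motif overlapped a match of another. The AP-1 site TGANTCA stood in none of the 7 and in 6.34% of all windows. The core of hypoxia response elements, ACGTG, was absent from the 7 as well and occurred in 16.6% of all windows. The same held for the TATA box, TATAAA, at 12.9% of all windows. A match of this kind is a description of the letters and not a bound site.

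Adra1b (ENSRNOG00000060087), a Gq-coupled receptor for noradrenaline, showed the largest log2 fold change among the receptors and Rgs2 that were tested. Adra1d stood higher with a pseudocount of 0.01 (3.56 against 3.22) and without I/R sample 3 (2.96 against 2.89). The deposited values were 1.89, 0.614 and 0.697 FPKM in sham samples 1 to 3 and 10.7, 5.39 and 11.6 FPKM in I/R samples 1 to 3. Every I/R sample lay above every sham sample, as was the case for 37.2% of all genes tested, while for 13% every I/R sample lay below. The mean went from 1.07 ± 0.713 to 9.24 ± 3.37 FPKM (SD, n = 3 each), a ratio of 8.67. On the scale of log2(FPKM + 0.1) the fold change was 3.09 ± 0.42 (SE), with a 95% interval of 2.15 to 4.03 and an adjusted p of 0.0026 by limma. Of the genes tested, 50 (0.457%) had a larger log2 fold change. The values rested on 76 to 198 fragments in sham and 529 to 1075 in I/R, so that the gap between groups was wide against counting error. In RefSeq GRCr8 the uncharacterised locus LOC108352076 overlaps this gene, and whether the counting used the strand of the reads was not given in the sources used here.

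The genes whose profile over the 6 samples lay nearest to that of Adra1b were ENSRNOG00000063903, Fcer2, the low-affinity receptor for immunoglobulin E, and ENSRNOG00000066746, at distances of 0.333, 0.763 and 0.839 on the centred log2(FPKM + 0.1) scale. The nearest, ENSRNOG00000063903, stood at 0.139, 0 and 0 FPKM in sham and 1.27, 0.592 and 1.10 FPKM in I/R. In sham samples 2 and 3 its value on this scale was therefore the pseudocount of 0.1 alone, which bears on its distance. All were chosen by nearness to a gene that rose, so their own rise is no separate result.

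Adra1d (ENSRNOG00000021256), the alpha1 receptor best known from arterial smooth muscle, was near the lower limit of detection in sham. It stood at 0.0643, 0.123 and 0.0142 FPKM in sham samples 1 to 3 and at 2.27, 0.559 and 0.292 FPKM in I/R samples 1 to 3. The groups did not overlap, as was true in this direction of 37.2% of all genes tested. The I/R samples spread over a wide range, with sample 1 far above the others. The sham values came from 8, 18 and 2 fragments and the I/R values from 247, 65 and 32, and the 2 fragments of sham sample 3 allow 0.0017 to 0.0511 FPKM (exact Poisson 95% interval). The ratio of the means, 1.04 over 0.0670 FPKM, was 15.5, above that of Adra1b. The log2 fold change was 2.40 ± 0.69 (SE; 95% interval 0.86 to 3.94; adjusted p = 0.0252 by limma). The call was not firm: the adjusted p by limma was 0.0536 without sham sample 2, 0.0758 without sham sample 3, 0.0540 with a pseudocount of 1 and 0.0543 with no filter, and without I/R sample 1 the gene fell below the filter.

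Markers of the vessel wall stand beside Adra1d. Of 7 smooth muscle and pericyte markers 0 were higher and 2 lower, Pdgfrb and Kcnj8, with a median log2 fold change of 0.44, and their summed level was 89.3 to 278 FPKM in sham and 105 to 301 FPKM in I/R. Their part in the result for Adra1d was not tested.

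**Figure D1:**
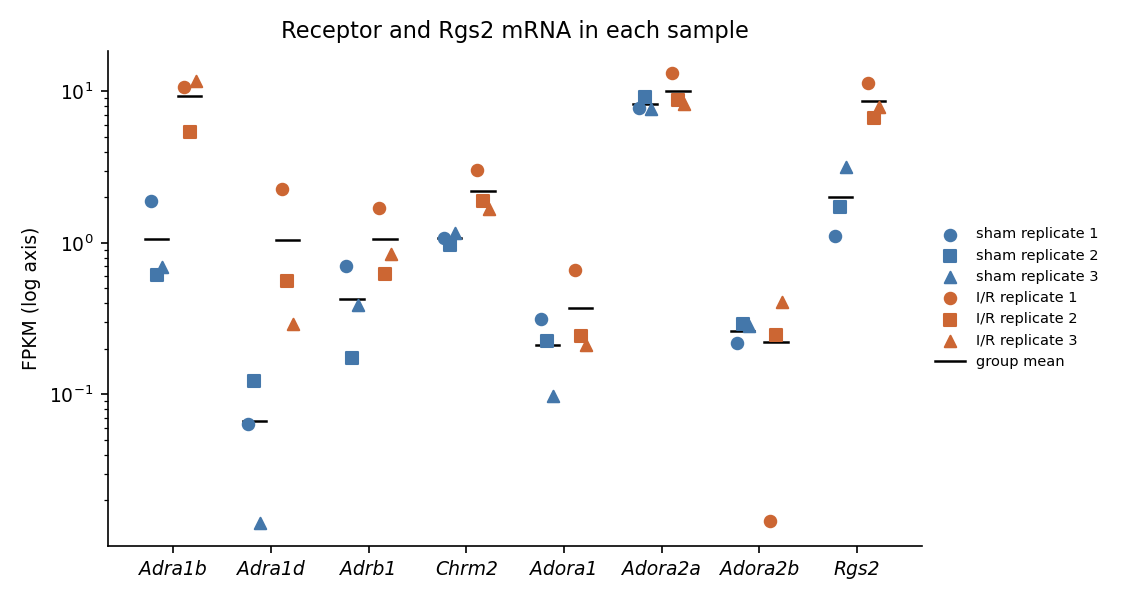
FPKM of the 8 genes in each sample, on a log axis, with sham in blue, I/R in orange, a marker shape for each replicate number and a black line at the group mean. The 3 I/R values of Adra1b, Adra1d, Chrm2 and Rgs2 sit above all 3 sham values, whereas the groups overlap for Adrb1, Adora1, Adora2a and Adora2b. Of all genes tested, 37.2% have every I/R sample above every sham sample.

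Adrb1 (ENSRNOG00000017002), the main cardiac receptor for noradrenaline, was measured at 0.704, 0.173 and 0.392 FPKM in sham samples 1 to 3. The I/R samples held 1.69, 0.620 and 0.850 FPKM. Sham sample 1 lay above I/R sample 2, so the groups overlapped. The mean was 0.423 ± 0.267 FPKM in sham and 1.05 ± 0.563 FPKM in I/R (SD, n = 3 each), from 41 to 141 and 116 to 295 fragments. The log2 fold change was 1.17 ± 0.49 (SE; 95% interval 0.08 to 2.25), with an adjusted p of 0.0906 by limma, which did not pass. With the replicate number as a block, which pairs samples of the same number, the adjusted p by limma was 0.0272 (28.2% of all genes higher and 8.18% lower in that fit), and without sham sample 1 the log2 fold change was 1.54 with an adjusted p of 0.0453, so the call on Adrb1 depends on the design and on 1 sample.

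Chrm2 (ENSRNOG00000046972), which mediates vagal slowing of the heart, was steady in sham at 1.07, 0.969 and 1.17 FPKM. In I/R it stood at 3.02, 1.88 and 1.68 FPKM, above sham in 3 of 3 samples, as did 37.2% of all genes tested. The means of 1.070 ± 0.09997 and 2.20 ± 0.721 FPKM (SD, n = 3 each) gave a ratio of 2.05. The log2 fold change was 0.93 ± 0.27 (SE; 95% interval 0.32 to 1.54; adjusted p = 0.0266 by limma), and 21.5% of all genes tested rose by more. The values came from 345 to 427 fragments in sham and 477 to 848 in I/R, so counting error was small. The call was lost without any one of sham samples 1, 2 and 3 (adjusted p 0.0540, 0.0737 and 0.0649 by limma) and without I/R sample 1 (log2 fold change 0.69, adjusted p 0.0728 by limma). The annotation places the loci LOC102554507 and Mir490 in overlap with this gene.

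Adrb1 and Chrm2, which act in opposite directions on the heart rate, kept overlapping ratios: the ratio of Chrm2 to Adrb1 within a sample was 1.52 to 5.58 in sham and 1.79 to 3.04 in I/R (log2 difference −0.41, exact two-sided permutation p = 0.7, n = 3 each). Adra1b, by contrast, was 2.68, 3.54 and 1.78 times Adrb1 in sham samples 1 to 3 and 6.34, 8.70 and 13.7 times Adrb1 in I/R samples 1 to 3. The difference in this log2 ratio was 1.83 and the groups did not overlap (exact two-sided permutation p = 0.1, the smallest that 3 samples against 3 can give). Adra1b over Chrm2 likewise differed by 2.24 on the log2 scale (exact permutation p = 0.1). Such ratios hardly depend on how a library is scaled, and the 5 compared were chosen after the levels had been seen.

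Adora2a (ENSRNOG00000001302), known from coronary vessels, platelets and leukocytes, was the most abundant of the receptors per length in both groups and did not pass the test. The sham samples held 7.72, 9.23 and 7.63 FPKM and the I/R samples 13.1, 8.79 and 8.26 FPKM. I/R samples 2 and 3 lay inside the sham range and I/R sample 1 above it. The mean was 8.19 ± 0.899 FPKM in sham and 10.1 ± 2.68 FPKM in I/R (SD, n = 3 each), with a log2 fold change of 0.27 ± 0.25 (SE; 95% interval −0.28 to 0.82; adjusted p = 0.427 by limma). That value is close to the median of all genes, and 51.3% of genes rose by more. Relative to Chrm2 in the same sample, Adora2a stood at 7.198, 9.53 and 6.53 times its level in sham and at 4.35, 4.67 and 4.91 times in I/R, a log2 difference of −0.72 with no overlap (exact two-sided permutation p = 0.1, the smallest possible).

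Beside Adora2a stand the markers of the cells in which it is known. Of 7 endothelial markers 0 were called in either direction (Kdr passed as higher with the replicate block, limma adjusted p = 0.0451), with a median log2 fold change of −0.21 and a summed level of 185 to 236 FPKM in sham and 187 to 216 FPKM in I/R. Of 5 neutrophil and monocyte markers tested 2 were higher (S100a8 and S100a9) and 1 lower (Ccr2), with a summed level of 51.1 to 67.3 FPKM in sham and 73.7 to 140 FPKM in I/R. Of 7 macrophage markers 1 was higher (C1qb) and 2 were lower (Cd163 and Mrc1), with 38.3 to 44.6 FPKM in sham and 51.4 to 63.0 FPKM in I/R. Their part in the level of Adora2a was not tested.

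Adora1 (ENSRNOG00000003442), the adenosine receptor that slows conduction, was scarce. It was listed at 0.314, 0.225 and 0.0977 FPKM in sham and 0.658, 0.243 and 0.214 FPKM in I/R, so the groups overlapped. These values rest on 23 to 65 fragments in sham and 39 to 119 in I/R. In the fit without a filter on low values the log2 fold change was 0.54 ± 0.46 (SE; 95% interval −0.54 to 1.62; adjusted p = 0.477 by limma). That interval holds values on both sides of 0 for this gene, and Mybph, a gene for a muscle protein, overlaps it in the annotation.

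Adora2b (ENSRNOG00000002922), a low-affinity receptor that answers to high adenosine, was equally scarce, at 0.217, 0.292 and 0.282 FPKM in sham. In I/R it stood at 0.0147, 0.246 and 0.406 FPKM, with the lowest and the highest of all 6 values. I/R sample 1 held a single fragment, which allows 0.0004 to 0.0816 FPKM (exact Poisson 95% interval), and the other samples 17 to 28. The log2 fold change without a filter was −0.41 (95% interval −1.70 to 0.87; adjusted p = 0.649 by limma), and the difference was 0.21 without I/R sample 1, so no direction could be given at this depth.

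Rgs2 (ENSRNOG00000003687), which acts on Gq and so opposes alpha1-adrenergic signals, stood at 1.11, 1.73 and 3.16 FPKM in sham samples 1 to 3. It reached 11.3, 6.65 and 7.90 FPKM in I/R samples 1 to 3. The sham samples differed among themselves more than the I/R samples did in proportion, but the groups did not overlap. Such a separation, with I/R above sham, was seen in 37.2% of all genes tested. The mean rose from 1.999 ± 1.05 to 8.61 ± 2.40 FPKM (SD, n = 3 each), a ratio of 4.31. The log2 fold change was 2.14 ± 0.36 (SE; 95% interval 1.34 to 2.94; adjusted p = 0.0040 by limma), and 2.69% of genes tested rose by more. The values came from 79 to 255 fragments in sham and 442 to 700 in I/R. In fits that each leave out 1 sample, the log2 fold change stayed between 1.80 and 2.51 for Rgs2 and between 2.82 and 3.55 for Adra1b, and both genes were called in all 6 of these fits. The ratio of Rgs2 to Adra1b was 0.589 to 4.53 in sham and 0.679 to 1.23 in I/R, with overlap (log2 difference −1.03, exact two-sided permutation p = 0.4).

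**Figure D2:**
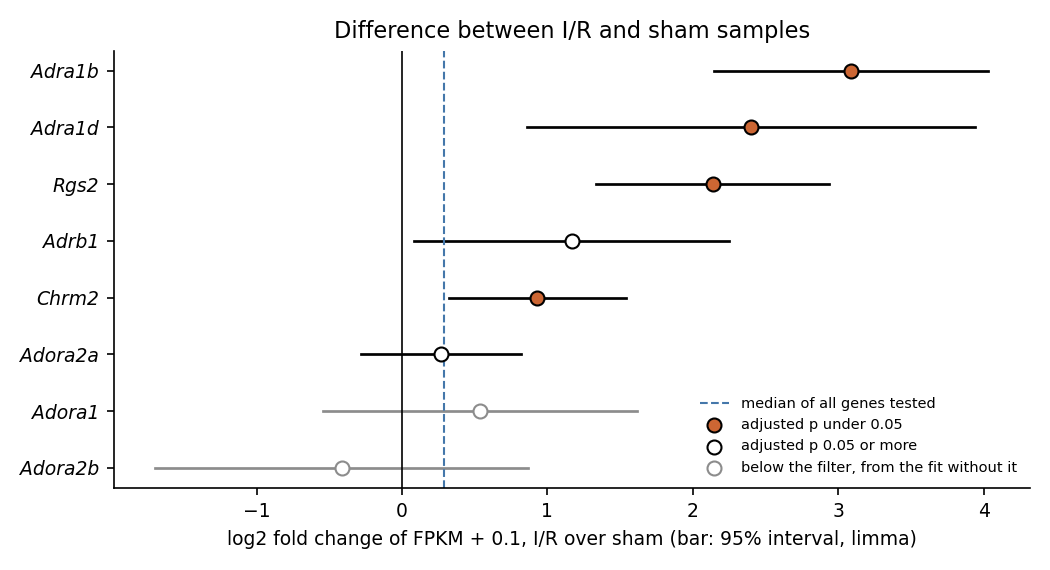
Log2 fold change of each gene, I/R over sham, as a point with its 95% interval from limma, on the log2(FPKM + 0.1) scale. Filled points passed an adjusted p of 0.05, grey points are the 2 genes below the filter, and the dashed line is the median of all genes tested at 0.29, on which Adora2a lies while the whole intervals of Adra1b, Adra1d, Rgs2 and Chrm2 lie above it.

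Per length, the order of the mean levels in sham was Adora2a, Rgs2, Chrm2, Adra1b, Adrb1, Adora2b, Adora1 and Adra1d. Of these neighbours only Adora2a and Rgs2 were separated by their ranges. In I/R the order was Adora2a, Adra1b, Rgs2, Chrm2, Adrb1, Adra1d, Adora1 and Adora2b, and only Rgs2 and Chrm2 were separated. Adra1b thus stood level with Chrm2 in sham (means 1.066 and 1.070 FPKM, with overlapping ranges). In I/R it stood next to Adora2a, where the ranges of those 2 genes overlapped.

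The makeup of the receptor mRNA does not depend on the scaling of a library. In it the shares of Adra1b and Adora2a separated the groups, though no share passed after adjustment. Of the summed FPKM of the 7 receptors, Adra1b took 15.8%, 5.28% and 6.78% in sham and 34.0%, 30.4% and 49.8% in I/R. Adora2a took 64.4%, 79.4% and 74.2% in sham and 41.7%, 49.6% and 35.4% in I/R. The groups did not overlap for either gene, nor for the small shares of Adra1d and Adora2b. Their mean shares were 0.576% and 2.36% in sham and 3.87% and 1.06% in I/R. The mean share of Adra1b was 9.27% ± 5.67 in sham and 38.1% ± 10.3 in I/R, and that of Adora2a was 72.7% ± 7.60 and 42.2% ± 7.10 (SD, n = 3 each). Chrm2 held 9.55% ± 1.60 and 9.14% ± 1.75 and Adrb1 3.73% ± 2.20 and 4.17% ± 1.04, and for both the groups overlapped. The exact two-sided permutation p was 0.1, the smallest possible, for each of Adra1b, Adora2a, Adra1d and Adora2b. After Benjamini-Hochberg adjustment over the 9 shares compared this permutation p was 0.150, which misses 0.05 by design. For Chrm2 and Adrb1 the exact permutation p was 0.8 and 1. The shares were chosen after the levels had been seen, and those of 1 sample sum to a fixed whole, so that a rise of Adra1b alone lowers the rest.

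**Figure D3:**
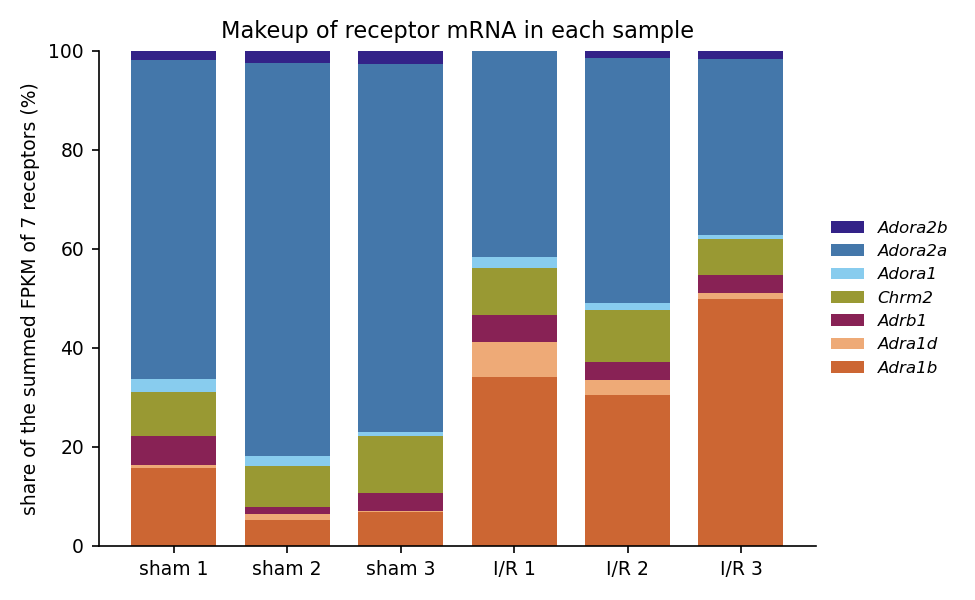
Share of each receptor in the summed FPKM of the 7 receptors, in percent, as a stacked bar for each sample. Adra1b (orange, at the base) takes 5.28% to 15.8% in the 3 sham bars and 30.4% to 49.8% in the 3 I/R bars, and Adora2a (blue) takes 64.4% to 79.4% and 35.4% to 49.6%.

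The size of each rise depended on the scale against which a library was set. Over all genes, the middle log2 fold change was 0.29 with the FPKM as deposited, 0.48 when values were rescaled to a common sum (TPM), 0.04 when centred on the median, −0.02 after quantile normalization, −0.46 when rescaled with the mitochondrially encoded mRNAs left out and −1.93 when centred on the cardiomyocyte markers. Of all calls, 77.6% were higher with the FPKM as deposited, against 87.3%, 56.5%, 48.0%, 21.7% and 0.406% under these rescalings in the same order. Relative to the median of all genes in the deposited FPKM, the log2 fold change was 2.80 for Adra1b, 2.11 for Adra1d, 1.85 for Rgs2, 0.88 for Adrb1, 0.64 for Chrm2 and −0.02 for Adora2a. Adra1b, Adra1d and Rgs2 were called higher under each scaling but the last. For Chrm2 the call was lost when centred on the median (0.68, adjusted p = 0.0554 by limma) and when the mitochondrially encoded mRNAs were left out (0.20, adjusted p = 0.665 by limma).

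Set against the cardiomyocyte markers, the same genes read differently. On that scale the log2 fold change was 0.87 for Adra1b (adjusted p = 0.172 by limma), 0.18 for Adra1d, −0.08 for Rgs2, −1.05 for Adrb1, −1.29 for Chrm2 and −1.95 for Adora2a, and of these 6 only Adora2a passed, as lower (adjusted p = 0.00066 by limma). On this scale 80.7% of all genes were called lower and 0.329% higher, and Adora2a lay at the median of all genes, so that call says nothing particular to Adora2a. Rgs2, Adrb1, Chrm2 and Adora2a thus turned sign. Within each sample, Adra1b was higher relative to the mean of these markers in 3 of 3 I/R samples than in any sham sample (log2 difference 1.01), and Chrm2, Adora1, Adora2a and Adora2b were lower in 3 of 3 (−1.23, −1.45, −1.95 and −3.43, the last resting on 1 fragment in I/R sample 1), each with an exact two-sided permutation p of 0.1, the smallest possible. For Rgs2 this difference was −0.02 with overlap. The middle gene of all those tested fell by 1.93 in the centring on these markers. Chrm2 and Adora1 fell less than that and Adora2a about as much, so their falls are not particular to these receptors. The share of all genes that separate in this way was not counted.

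**Figure D4:**
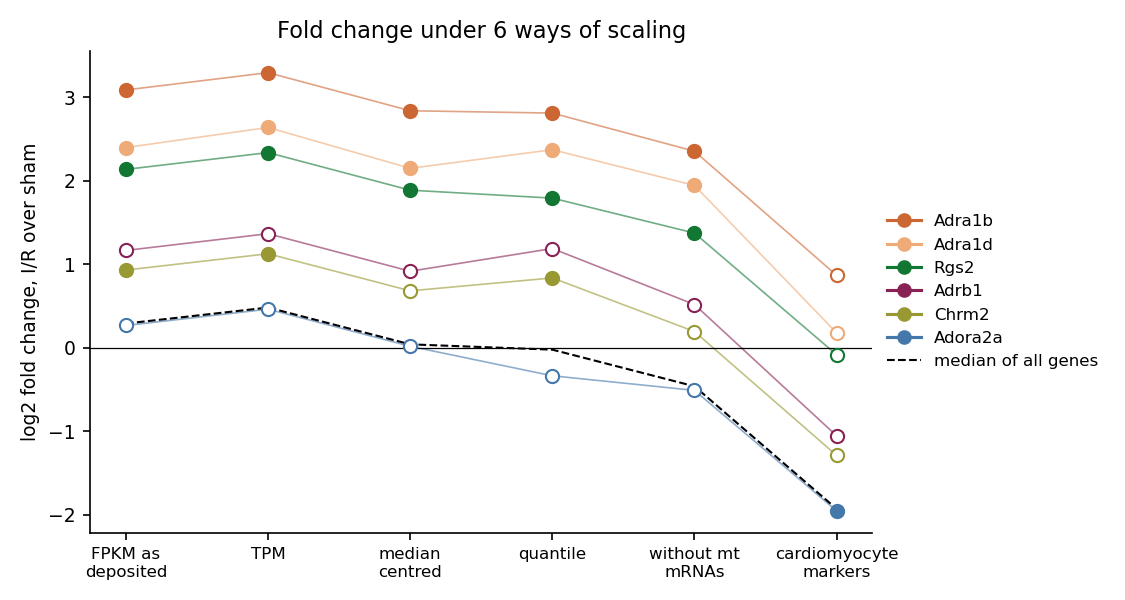
Log2 fold change of the 6 genes tested, I/R over sham, under 6 ways of scaling the libraries (from left to right as named on the axis), with the median of all genes as a dashed line. Filled points passed an adjusted p of 0.05, and all 6 genes stand lowest at the far right, where Adra1b is at 0.87 and Adora2a at −1.95 against 3.09 and 0.27 at the far left.

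The other receptors of the 3 families that were analysed were scarce. These 9 all had a mean under 0.5 FPKM, so none was tested. Adra2b was the most abundant in sham, at 0.385, 0.311 and 0.279 FPKM, and stood at 0.324, 0.121 and 0.0770 FPKM in I/R. Adra2c, Adora3, Chrm3 and Adra2a had highest values of 0.347, 0.276, 0.0723 and 0.0334 FPKM over the 6 samples. Adrb3 and Chrm4 were above 0 in 1 sham sample each, and Chrm1 and Chrm5 were listed at 0 in all samples. The groups overlapped for each of the 9 receptors.

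Downstream of the receptors, 140 of 148 listed genes were in the table and 86 were tested, of which 18 were higher and 4 lower with a median log2 fold change of 0.22. That count was not above the 25.5% of all genes called higher. Under the TPM, median, quantile and non-mitochondrial scalings 17 of the 18 kept their sign, the exception being Gnai2, and 6 kept their call (Rgs1, Rgs16, Prkaca, Prkar1a, Crem and Adk). All 4 lower genes kept their sign there and 3 kept their call (Pde4c, Pde7a and Slc28a2).

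Among the G protein subunits 8 of 20 tested were higher and 1 was lower, with a median log2 fold change of 0.52. The shares over all genes tested were 25.5% higher and 7.36% lower. The largest rises were those of Gng5, Gnao1 and Gnai3, at log2 fold changes of 1.66, 1.60 and 1.53 (adjusted p 0.0075, 0.0111 and 0.0065 by limma). With the mitochondrially encoded mRNAs left out these calls were lost (adjusted p 0.0649, 0.0980 and 0.0995 by limma). That of Gnai3 was also lost after quantile normalization (adjusted p = 0.123 by limma). Gnai3, which encodes an inhibitory alpha subunit of the kind that Chrm2 and Adora1 couple to, stood at 7.52, 14.9 and 9.98 FPKM in sham and 25.6, 40.1 and 26.8 FPKM in I/R, with no overlap. Gng11, a gamma subunit, was the 1 that fell, from 65.2 ± 3.76 to 37.1 ± 3.53 FPKM (SD, n = 3 each). Its call was lost under the TPM scaling (log2 fold change −0.62, adjusted p = 0.0708 by limma) and kept under the median, quantile and non-mitochondrial scalings. Gnaq, the alpha subunit used by alpha1 receptors and the target of Rgs2, was named after its values were seen. It stood at 0.572, 0.784 and 0.278 FPKM in sham and 1.42, 1.64 and 1.27 FPKM in I/R. The log2 fold change of Gnaq was 1.34 (adjusted p = 0.0181 by limma). With the mitochondrially encoded mRNAs left out it was 0.65 and the call was lost (adjusted p = 0.228 by limma). The other Gq-family subunits did not pass: the log2 fold change was 0.14 for Gna11 (adjusted p = 0.700 by limma) and −0.48 for Gna15 (adjusted p = 0.319 by limma), and Gna14, at 0 to 0.214 FPKM, was below the filter.

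Rgs2 was not the only RGS gene that rose: of the 11 others tested 4 were higher and 0 lower, though their median log2 fold change was −0.02. Over all genes tested, 25.5% were higher and 7.36% lower. Rgs16, an inhibitor of Gi and Gq, went from 0.715, 1.77 and 0.857 FPKM in sham to 9.36, 5.95 and 5.78 FPKM in I/R, a log2 fold change of 2.62 ± 0.34 (SE; adjusted p = 0.0022 by limma). Rgs1, known from leukocytes, and Rgs6, which limits muscarinic slowing of the heart, rose by 1.81 and 1.67 on the log2 scale (adjusted p 0.0041 and 0.0069 by limma). The fourth was Rgs5, a pericyte and smooth muscle gene. The groups did not overlap for these 4 genes, and every I/R sample lay above every sham sample for 37.2% of all genes tested.

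In the cyclic AMP arm used by Adrb1, Adora2a and Adora2b, 3 of 9 protein kinase A and cyclic AMP response genes were higher and 0 lower. Their median log2 fold change was 0.43, and over all genes tested 25.5% were higher and 7.36% lower. Crem, a transcription factor that answers to cyclic AMP, went from 2.44, 1.95 and 1.81 FPKM in sham to 6.32, 11.0 and 8.28 FPKM in I/R (log2 fold change 1.97 ± 0.26, SE; adjusted p = 0.0022 by limma). Prkaca and Prkar1a, a catalytic and a regulatory subunit of protein kinase A, rose by 1.81 and 1.60 on the log2 scale (adjusted p 0.0054 and 0.0035 by limma). Of 6 adenylyl cyclases, which make cyclic AMP, 1 was higher: Adcy5, a main cardiac form, at 1.36 (adjusted p = 0.0210 by limma). Of 9 phosphodiesterases, which break down cyclic AMP, cyclic GMP or both, Pde4b was higher (1.25) and Pde4c and Pde7a were lower (−1.04 and −1.60), with a median of −0.26.

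For the remaining lists few genes passed or none did. Of 10 genes of adenosine production and clearance, Adk, which returns adenosine to AMP, was higher, from 4.39 ± 1.74 to 15.7 ± 7.47 FPKM (log2 fold change 1.78; adjusted p = 0.0074 by limma). Slc28a2, a concentrating nucleoside carrier, was lower, from 23.8 ± 6.66 to 9.48 ± 2.14 FPKM (SD, n = 3 each; log2 fold change −1.31; adjusted p = 0.0081 by limma). No gene passed among 6 receptor kinases and arrestins, 7 Gq effectors and 8 genes of transmitter handling and the muscarinic potassium channel, with medians of −0.03, 0.08 and 0.23. With the replicate block 3 more downstream genes passed by limma: Ddc, an enzyme of catecholamine synthesis, as higher (log2 fold change 1.10, adjusted p = 0.0196 with the block), and Adcy6, an adenylyl cyclase, and Rgs10 as lower (−0.87 and −0.64, adjusted p 0.0370 and 0.0461 with the block). Nerve markers bear on the last list: of 6 neuron and Schwann cell markers tested 1 was higher (Tubb3), at a summed level of 3.45 to 8.12 FPKM in sham and 7.10 to 8.18 FPKM in I/R, and their part was not tested. Dbh, the enzyme that makes noradrenaline, is on both lists and lay below the filter, at 0.0945, 0.0089 and 0.0185 FPKM in sham and 1.01, 0.303 and 0.954 FPKM in I/R, with no overlap. Th, also on both lists, was above 0 in I/R sample 2 only, at 0.0141 FPKM, and Slc6a2 was at 0 in all samples. How many genes below the filter separate in this way was not counted, so the values describe Dbh alone.

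**Figure D5:**
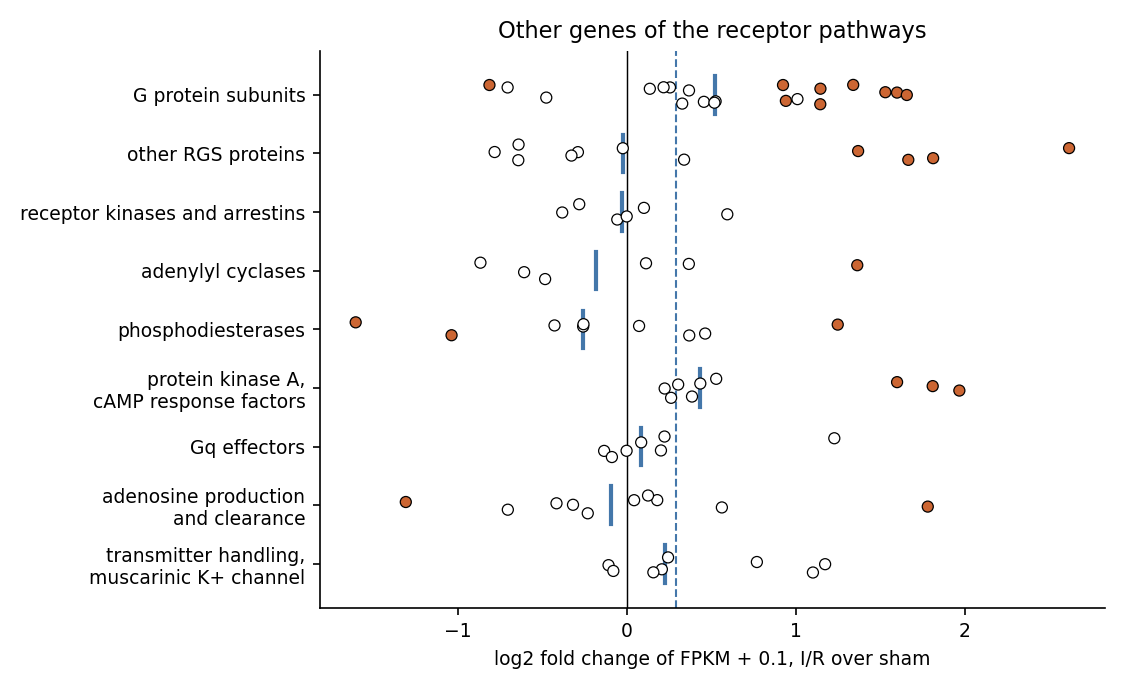
Log2 fold change, I/R over sham, on the log2(FPKM + 0.1) scale, of the 86 tested genes in 9 lists of pathway genes, 1 point a gene. Filled points passed an adjusted p of 0.05, the blue bars are list medians (0.52 for G protein subunits, −0.26 for phosphodiesterases) and the dashed line is the median of all genes tested at 0.29.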

How the data were processed

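RNA from 3 sham and 3 I/R samples of rat myocardium had been extracted with Trizol and made into libraries with a stranded total RNA kit. The authors deposited 1 table of FPKM values for each gene and sample, already divided by gene length and library size. The submitters' processing notes name STAR and HTSeq. The genome build, versions and strand setting were not given in the sources used here. Of 30452 rows, those with the same symbol were summed, and the 7092 without one kept their identifier, giving 28293 genes.

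log2(FPKM + 0.1) of the 10942 genes with a mean of at least 0.5 FPKM was compared between groups with limma 3.58.1 in R 4.3.3 (intensity trend, Benjamini-Hochberg, 0.05), after the procedure had been tested on simulated data. Fold changes on this scale understate those of low genes. The study's methods state no test for single genes of these data. Ratios and shares were compared by exact two-sided permutation tests. In all, 18 alternatives were run. The members and lists were chosen with earlier results of these data known. By rule the text names at most 3 genes of a list, those past the threshold with the largest log2 fold change, and all other receptors. It also names the 3 genes nearest in profile to Adra1b, which had the largest log2 fold change of the set in the main fit. Other names were chosen after their values were seen. From the lists, markers of fibroblasts (2 of 7 higher, Col1a1 and Tcf21, median log2 fold change 0.57) and adipocytes (Fabp4 alone tested, −0.96, limma adjusted p 0.0905, or 0.0095 with the block) are given here only, and their part in the results was not tested. Fabp4 stood at 541 to 1329 FPKM in sham, whereas Adipoq, Plin1, Cidec and Lep had highest values of 1.72, 0.306, 0.436 and 0.0980 FPKM over all samples. Fabp4 is therefore not read as a measure of adipocytes here.

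Whether replicate numbers pair the samples was checked by correlating deviations from the group means over genes: same-numbered samples correlated at 0.203, 0.117 and 0.118, while sham 3 with I/R 2 gave 0.120. All 3 exceeded 0.1, but so did sham 3 with I/R 2, and the labels state no pairing, so whether the numbers pair the samples was not settled. The main fit and the permutation tests were unpaired, and the fit with the replicate block is given as an alternative. Fragment numbers were recovered for 17633 of 17863 genes and served to describe depth only.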

Additional observations from a re-analysis of the deposited data

How the results depend on the processing

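Adra1b and Rgs2 kept their direction and their call in 17 of 18 alternatives each. Against 4 genes of the set called higher and 0 lower, 2 were higher with no filter or with a mean of at least 5 FPKM (3 genes tested). When centred on the cardiomyocyte markers 0 were higher and 1 lower (Adora2a). Of all genes, 11.4% were higher and 3.32% lower with no filter. With a mean of at least 5 FPKM, 1892 of 3784 genes were higher and 166 lower. The cardiomyocyte centring gave 0.329% higher and 80.7% lower. With 1 sample left out the counts ran from 2 to 4 higher and 0 to 0 lower, the lowest without sham 2, sham 3 or I/R 1. In those fits 1526 to 2567 of all genes were higher and 305 to 880 lower. Signs turned in the cardiomyocyte centring for Adrb1 (−1.05), Chrm2 (−1.29), Adora2a (−1.95) and Rgs2 (−0.083) and for the untested Adora1 (0.54 to −1.68, and −0.0087 without mitochondrially encoded mRNAs), and for Adora2a also under quantile normalization (−0.33) and without mitochondrially encoded mRNAs (−0.51). With the replicate block, which pairs samples by number, 5 of the set were higher, Adrb1 (adjusted p = 0.0272, limma) being added. No other call in the set changed, and the downstream genes gave 19 higher and 6 lower. Of all genes 28.2% were higher and 8.18% lower with the block.

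Against 18 downstream genes higher and 4 lower, 10 were higher with a mean of at least 5 FPKM, 6 without mitochondrially encoded mRNAs and 0 in the cardiomyocyte centring, and 2 were lower with no filter, 11 median-centred, 14 after quantile normalization, 21 without mitochondrially encoded mRNAs and 67 in the cardiomyocyte centring. Leaving out 1 sample gave 11 to 19 higher (fewest without sham 3) and 1 to 4 lower (fewest without sham 2). Over all genes, 2790 were higher and 805 lower. Higher calls were 1441 after quantile normalization, 793 without mitochondrially encoded mRNAs, 36 in the cardiomyocyte centring and 1526 to 2567 with 1 sample left out (fewest without sham 3). Lower calls were 166 with a mean of at least 5 FPKM, 504 as TPM, 1554 median-centred, 1559 after quantile normalization, 2857 without mitochondrially encoded mRNAs, 8827 in the cardiomyocyte centring and 305 to 880 with 1 sample left out (fewest without sham 2). Fewer genes were tested under the stricter filter; the cause of the other changes was not tested. Adora1 and Adora2b, below the filter, have no value where a fit over filtered genes is needed, nor has Adra1d where its mean falls short.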
